A study of Mus musculus with 2 samples.

Results

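Mir132 and Mir212 are the paired miRNA genes of a single locus on mouse chromosome 11. They were found by symbol in the GENCODE M21 annotation and make up 2 of the 2202 miRNA genes counted. Small RNA was sequenced from hippocampus (the labels call the tissue a layer of it) of male B6CASTF1/J mice aged 14 days with no treatment named, the hybrid offspring of C57BL/6J and CAST/EiJ. There was 1 group of 2 biological replicates. Each label names 3 males by number, does not say how their tissue was combined, and carries the same donor identifier as the other. The spread between these samples may therefore be partly technical.

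A miRNA is cut from a hairpin within a longer primary transcript, first by Drosha in the nucleus and then by Dicer in the cytoplasm, and 1 arm of the hairpin is usually loaded into Argonaute to repress mRNAs that pair with its seed. The miR-132/212 locus is known as a target of the transcription factor CREB: BDNF and synaptic activity raise its primary transcript in neurons. miR-132 is known to promote dendrite growth and spine formation in hippocampal neurons. Neither CREB nor the primary transcript was measured in these libraries, so the name "CREB-driven" for the pair was not tested here.

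The hairpin sequences show what the reads were counted on, and the mature ones show what the pair shares. Both are RefSeq entries on GRCm38.p6 (mm10), and both genes matched. In the hairpins, capitals mark the mature arms, 5p before 3p:
Mir212 hairpin: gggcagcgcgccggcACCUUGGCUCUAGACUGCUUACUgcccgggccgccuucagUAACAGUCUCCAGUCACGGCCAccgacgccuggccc
Mir132 hairpin: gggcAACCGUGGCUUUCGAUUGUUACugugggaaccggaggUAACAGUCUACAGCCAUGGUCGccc
In the mature miRNAs, capitals mark the seed, bases 2 to 8 from the 5′ end:
miR-132-3p: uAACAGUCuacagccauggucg
miR-212-3p: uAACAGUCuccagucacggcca
miR-132-5p: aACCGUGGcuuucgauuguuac
miR-212-5p: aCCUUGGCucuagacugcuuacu

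The 3p arms carry the same seed, and of 1738 mature mouse miRNAs in the RefSeq table these 2 alone have it. They are identical at 17 of 22 positions and share their first 9 bases. Counted from 1 at the 5′ end, with the base of miR-132-3p first, they differ by A10C, C14U, U17C, U20C and G22A. The 5p arms have different seeds, and no other miRNA of the table has either of them. Over the 22 positions that both 5p arms have, counted from the 5′ end of each, 9 are identical. No offset between the arms was allowed in this count, so it can understate their likeness.

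These differences bear on whether reads of one hairpin could be counted for the other. The longest stretch common to the hairpins is 10 bases, and neither shares a stretch of 20 nucleotides with any other miRNA gene. Each of the 4 mature sequences matches 1 annotated hairpin exactly. The closest site of either 3p arm in another hairpin is in its partner, with 5 mismatches. For miR-212-5p it is in Mir132, also with 5 mismatches, and for miR-132-5p in Mir383, with 7. The deposited counts are per hairpin, so that 5p and 3p reads cannot be separated.

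Mir212 (ENSMUSG00000065590.1) lies on the plus strand of chromosome 11 at 75173388 to 75173478, and Mir132 (ENSMUSG00000065537.2) at 75173682 to 75173747, with 203 bases between them. Both are in intron 1 (75172598 to 75173977, 1380 bases) of 1700016P03Rik (ENSMUSG00000085609.1), a non-coding gene of the same strand. Mir212 begins 828 bases and Mir132 1122 bases after the start of that gene. The nearest protein-coding genes, Hic1 before the pair and Ovca2 after it, are on the other strand. Mir212 has the longer and more GC-rich hairpin, 91 bases at 69.2% G and C, against 66 bases at 57.6% for Mir132. Predicted minimum free energies were -41.5 kcal/mol for Mir212, with 32 base pairs, and -37.2 kcal/mol for Mir132, with 26.

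Depth differed between the libraries. Replicate 1 had 3793934 counts on miRNA genes (27.5% of its reads) and replicate 2 had 2554997 (35.3%). Unmapped reads were 41.3% and 20.7%, and reads that map to several places 26.3% and 37.5%. Levels are counts per 1000000 counts on miRNA genes (CPM), and 1 count was worth 0.264 CPM in replicate 1 and 0.391 CPM in replicate 2. Both members stand far above these limits. A list of neuron miRNAs had 10 of 14 members at 2 CPM or more in each library. Among them was Mir137 at 4100 CPM, averaged over the libraries. The share of all miRNA genes at that level is not given here, so the count does not test the tissue. The genes of miR-124, a hallmark miRNA of neurons, had 0 to 12 counts each. They share stretches with one another, and reads that map to several places were given to no gene. Mir138-1 also shares a stretch and had 19310 counts in replicate 1 and 8765 in replicate 2. The part of shared stretches in the low miR-124 counts was not tested.

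Mir132 was an abundant miRNA gene in both libraries, while Mir212 from the same locus was counted much less often. Mir132 had 65506 counts in replicate 1, or 17266 CPM (95% Wilson interval 17135 to 17397). In replicate 2 it had 15195 counts, or 5947 CPM (5854 to 6042). Replicate 1 is thus the high library, and the intervals, which cover counting error only, do not overlap. These intervals would be too narrow if PCR copies of a molecule were counted as separate reads. The mean was 11607 ± 8004 CPM (SD, n = 2).

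Mir212 had 1862 counts in replicate 1, or 491 CPM (95% Wilson interval 469 to 514). In replicate 2 it had 1204 counts, or 471 CPM (445 to 499). Here the libraries lie side by side and their intervals overlap. The mean was 481 ± 13.8 CPM (SD, n = 2). The SD was 2.87% of the mean for Mir212 and 68.96% for Mir132.

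**Figure D1:**
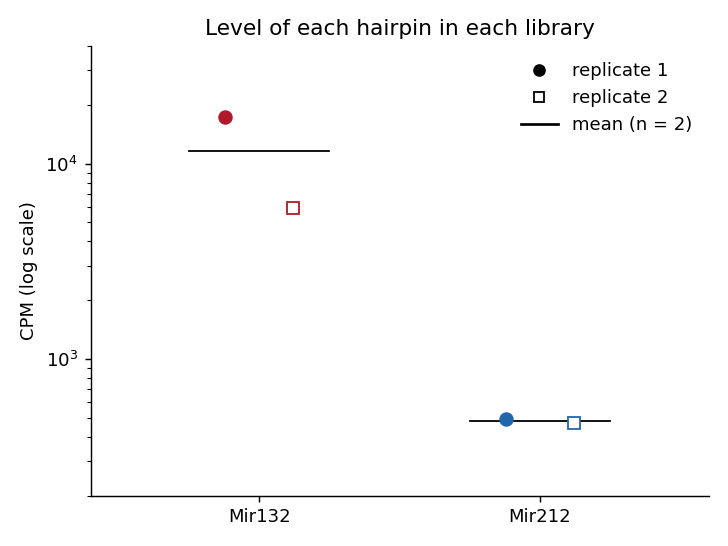
CPM on a log axis for Mir132 and Mir212 in replicate 1 (filled circles) and replicate 2 (open squares); bars are 95% Wilson intervals, which are smaller than the symbols, and horizontal lines are means of the 2 libraries. Mir132 stands at 17266 and 5947 CPM, and Mir212 at 491 and 471 CPM.

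No read was counted on the strand opposite to either gene, and the count that ignored strand equalled the stranded one in each library. Together, the hairpins held 1.78% of counts in replicate 1 and 0.642% in replicate 2 (mean 1.21% ± 0.802, SD, n = 2). Mir212 supplied 2.76% of the pair's counts in replicate 1 (95% Clopper-Pearson interval 2.64 to 2.89) and 7.34% in replicate 2 (6.95 to 7.75). Nearly all reads of the locus therefore came from the Mir132 hairpin in either library.

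By rank among all miRNA genes, Mir132 was 13 in replicate 1 and 35 in replicate 2, and 18 by mean CPM. Mir212 was 145 and 136, and 142 by mean. The genes beside Mir132 by mean CPM were Mir382 at 11680 ± 435 CPM and Mir191 at 11185 ± 1915 CPM (SD, n = 2). Both lie within the SD of Mir132, so its place in that order is not resolved. Beside Mir212 stood Mir34c at 483 ± 529 CPM and Mir339 at 468 ± 102 CPM, which also do not differ from it beyond their spread.

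**Figure D2:**
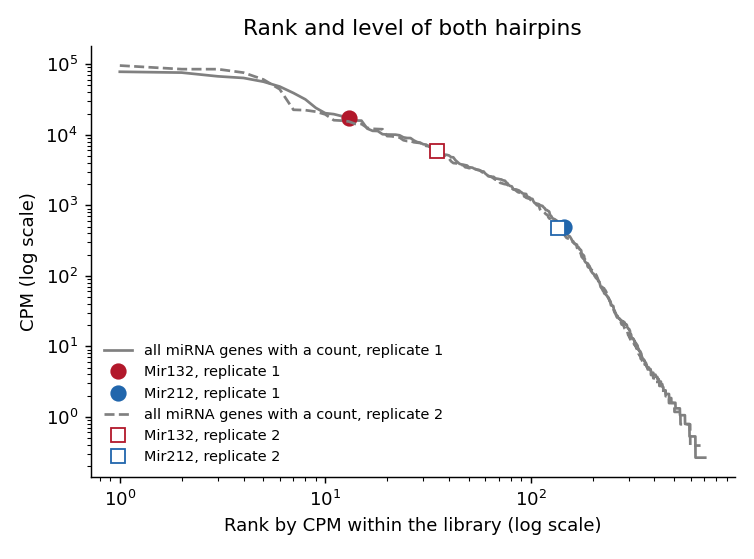
CPM against rank within each library, both on log axes; lines are all miRNA genes with a count in replicate 1 (solid) and replicate 2 (dashed). Mir132 moves along the curve from rank 13 to rank 35, while Mir212 keeps close ranks, at 145 and 136.

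The ratio of the hairpins needs no library total, since both were counted in the same library. There were 35.2 counts of Mir132 for each count of Mir212 in replicate 1 (exact 95% interval 33.6 to 36.9) and 12.6 in replicate 2 (11.9 to 13.4). The mean ratio was 23.9 ± 15.95 (SD, n = 2). Per base of annotated hairpin the ratios were 48.5 and 17.4, because the Mir212 hairpin is longer. The mature arms are 22 or 23 bases in both hairpins, and whether counts follow hairpin length was not tested. Mir132 exceeded Mir212 in each library, and the size of the excess differed between them by 2.79-fold (exact 95% interval 2.58 to 3.01). In Fisher's exact test over all neighbouring hairpin pairs, the adjusted p of that difference was 2.45e-144, with 2 libraries and counting error only.

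The same difference can be read gene by gene from the comparison of the libraries. Mir132 was 2.90-fold higher in replicate 1 (exact 95% interval 2.85 to 2.96), a log2 ratio of 1.54, and passed the exact binomial test. Mir212 was 1.04-fold higher in replicate 1 (0.968 to 1.12), a log2 ratio of 0.06, and did not pass it (adjusted p = 0.386, exact binomial test). Its interval includes equal levels. In that test 52.1% of the 507 genes tested differed between the libraries with 25.2% higher in replicate 1 and 26.8% in replicate 2, so that a pass is common. Among the 111 genes at 1000 CPM or more 103 passed.

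The size of the difference was less common. Of those 111 genes, 4 had a larger absolute log2 ratio than Mir132, and their median was 0.35. When the common dispersion from edgeR (coefficient of variation 0.377, from these libraries themselves) was added in a negative binomial test, Mir132 had an unadjusted p of 0.0545 and an adjusted p of 1, and Mir212 an unadjusted p of 0.941 (edgeR's exact test). That test called 0.394% of genes. The Mir132 difference was thus larger than counting error gives, and did not pass the threshold in the negative binomial test. The dispersion of that test comes from the same library differences that it tests, so few genes can pass. It therefore cannot decide whether Mir132 differs beyond the spread between replicates.

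**Figure D3:**
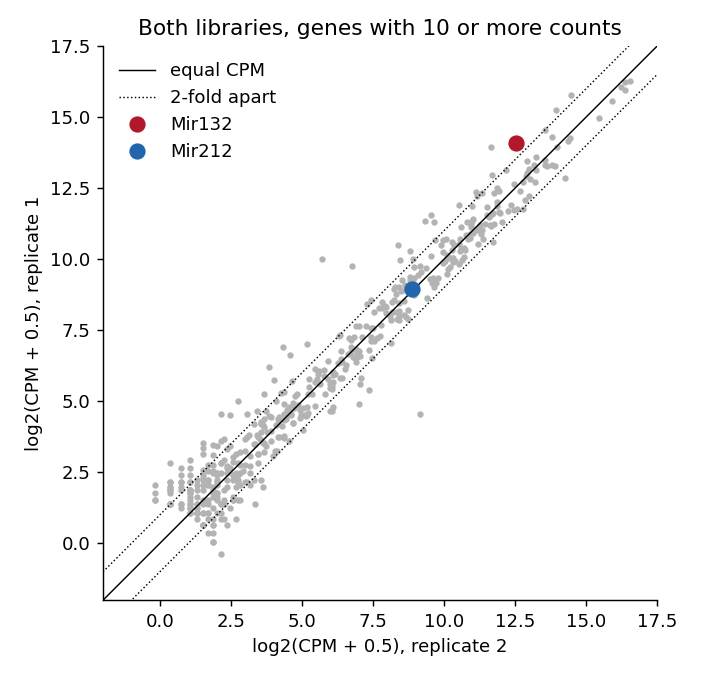
Level of each miRNA gene with at least 10 counts in sum, as log2(CPM + 0.5), in replicate 2 (x axis) and replicate 1 (y axis); the solid line is equal CPM and dotted lines are 2-fold. Mir132 lies above the upper dotted line at a log2 ratio of 1.54, and Mir212 on the line of equality at 0.06, a sign that turns with all reads as the denominator.

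The direction of Mir212 depends on the denominator. Per 1000000 of all reads, mapped or not, Mir212 was at 135 in replicate 1 and 166 in replicate 2, a log2 ratio of -0.30 (adjusted p = 6.5e-08, exact binomial test). This denominator shifted the log2 ratio of genes by a median of -0.36, and the median over all tested genes was then -0.30 too. Mir132 was at 4750 and 2099 per 1000000 of all reads, a log2 ratio of 1.18, and remained higher in replicate 1. The split of calls became 75 in favour of replicate 1 and 203 in favour of replicate 2, from 128 and 136.

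Other hairpins that lie close together set the pair in context. Pairs of neighbouring miRNA genes on the same strand, at most 1000 bp apart and with at least 10 counts in each hairpin, numbered 61 and included 105 hairpins, some of them in more than 1 pair. Such neighbours are often, but not always, cut from a common transcript. The ratio of the hairpins differed between the libraries in 70.5% of the pairs (Fisher's exact test), so that the pass of Mir132 and Mir212 is near the background. The log2 ratio, with 0.5 added to each count, changed by 1.48 between the libraries for Mir132 to Mir212, against a median absolute change of 0.55. It was the 8th largest change of the 61, and the 5th largest of the 52 pairs with 100 counts or more in each hairpin.

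The pairs just above it were Mir29a and Mir29b-1 (absolute change of the log2 ratio 1.58), Mir124a-1 and Mir3078 (1.59) and Mir201 and Mir547 (2.10). The last 2 of these rest on few counts and did not pass the test (adjusted p = 0.0857 and 0.0815, Fisher's exact test). Just below it came Mir99b and Mirlet7e (1.39), Mir16-1 and Mir15a (1.25) and Mir23a and Mir27a (1.19). Mir29a with Mir29b-1, Mir16-1 with Mir15a and Mir23a with Mir27a are genes of clusters in which a hairpin shares a stretch with a miRNA gene elsewhere, which Mir132 and Mir212 do not.

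In absolute size the mean log2 ratio of Mir132 to Mir212, 4.40, was the 17th largest of the 61, and the median was 2.89. The hairpin nearer the 3′ end of the transcript, the place of Mir132, was higher in both libraries in 26 pairs, and the hairpin nearer the 5′ end in 32. In the exact binomial test of single genes, both hairpins were called in the same direction in 19 pairs and in opposite directions in 14. In 22 pairs 1 hairpin was called and the other was not, which is also the state of Mir132 and Mir212. In 6 pairs neither was called.

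**Figure D4:**
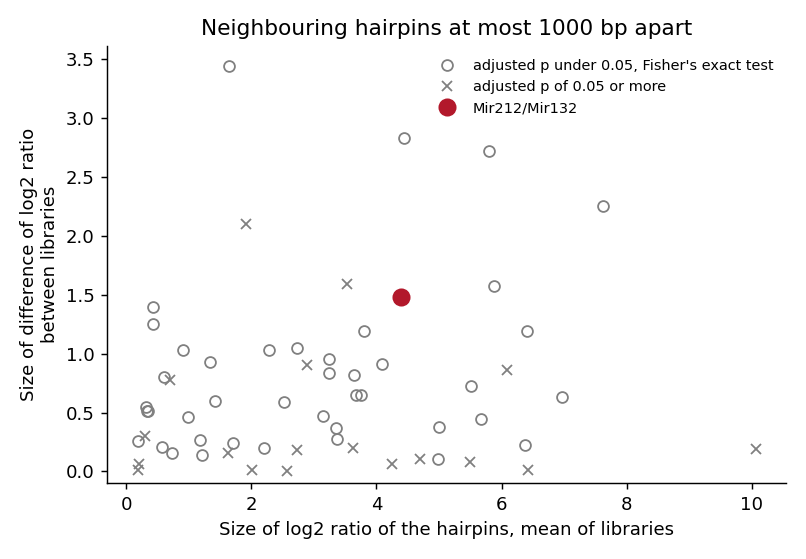
Each symbol is a pair of neighbouring hairpins: the absolute mean log2 ratio of its hairpins (x axis) against the absolute difference of that ratio between the libraries (y axis); circles passed Fisher's exact test and crosses did not. The Mir212 and Mir132 pair lies at 4.40 and 1.48, with 7 pairs above it.

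The genes nearest to each member over both libraries were found by Euclidean distance in log2(CPM + 0.5), over 2 libraries. For Mir212 they were Mir188 (distance 0.09), Mir129-1 (0.18), Mir329 (0.20), Mir877 (0.23) and Mir1981 (0.25). Mir188 was at 512 and 493 CPM in replicates 1 and 2. Mir132 had no neighbour as close: the nearest were Mir126a (0.73), Mir411 (0.85), Mir298 (0.90), Mir125a (0.99) and Mir187 (1.01). Mir298, at 15884 and 3196 CPM, was the 1 gene of these 5 with a larger log2 ratio between the libraries than Mir132, at 2.31.

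Other miRNAs described as regulated by activity or acting at synapses were taken as a list of 28 genes, of which 25 had at least 10 counts in sum. Of these 25, 8 were higher in replicate 1 and 10 in replicate 2, while 7 did not pass the exact binomial test. Of all 507 genes tested, 25.2% and 26.8% were called in these directions. Their median log2 ratio was 0.03, and that of all 507 tested genes 0.02. Only Mir29b-1, at 142 and 31 counts, had a larger log2 ratio than Mir132, at 1.59. Of the 28 genes 17 share a stretch with another miRNA gene, which leaves their counts uncertain.

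Named members of that list went both ways. Mir134, which limits spine size through Limk1, was at 982 CPM in replicate 1 and 1333 CPM in replicate 2, a log2 ratio of -0.44. Mir137 was at 3315 and 4885 CPM, a log2 ratio of -0.56. Mir138-1, which gives the spine regulator miR-138 and shares a stretch with Mir138-2, was at 5090 and 3431 CPM, a log2 ratio of 0.57. All 3 passed the exact binomial test. Mir34a was at 375 and 171 CPM, a log2 ratio of 1.13, and also passed.

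The libraries also differed in miRNAs of other cell types, here set beside the 25.2% of all tested genes called higher in replicate 1 and the 26.8% called higher in replicate 2. The oligodendrocyte list (Mir219a-2, Mir338 and Mir219a-1, all detected) summed to 4060 CPM in replicate 1 and 1247 CPM in replicate 2. In it 2 of 3 genes were called higher in replicate 1, and Mir219a-2, at 3014 and 743 CPM, made up most of the difference. The astrocyte and glia-enriched list (Mir21a, Mir31, Mir29a and Mir193a) summed to 3781 and 1651 CPM, with 2 of 4 called higher in replicate 1. These were Mir21a, at 1451 and 333 CPM, and Mir31, at 1037 and 52.1 CPM. Mir29a, at 1282 and 1254 CPM, and Mir193a, at 11.1 and 11.7 CPM, were not called. The choroid plexus and ciliated list summed to 1977 and 929 CPM, with 3 of 4 called higher in replicate 1. Mir34c, at 857 and 109 CPM, made up most of that difference. These lists are of 3 or 4 genes, and 0 of their members were called higher in replicate 2.

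The neuron list summed to 17993 CPM in replicate 1 and 22094 CPM in replicate 2. Of its 11 tested genes, 1 was called in favour of replicate 1 and 7 in favour of replicate 2. Of all tested genes, 25.2% and 26.8% were called in these directions. Of the 14 neuron genes, 12 share a stretch with another miRNA gene. Most are also in the list of activity and synapse miRNAs above, so the 2 lists are not separate. The endothelial and mural list summed to 14332 and 11076 CPM, with 1 of 3 called in each direction. The myeloid and microglia list summed to 1743 and 1640 CPM, with 2 of 4 called higher in replicate 1 and 1 in replicate 2. That 1 was Mir150, at 981 and 1047 CPM. Mir146, called higher in replicate 1, was at 700 and 545 CPM, and Mir150 and Mir146 made up most of both sums. Mir142 was at 54.6 and 45.8 CPM and Mir223 at 8.17 and 3.13 CPM. The erythroid list summed to 75.4 and 192 CPM, with 1 of 3 called higher in replicate 1 and 2 in replicate 2. The part of these cell types in the Mir132 difference was not tested. In whole tissue, fewer cells of a type and less RNA per cell cannot be told apart.

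Hairpin composition was only weakly related to the library difference. Across the 111 genes at 1000 CPM or more, the Spearman correlation of hairpin G and C content with the log2 ratio of the libraries was 0.146, and across the 328 genes at 10 CPM or more it was 0.129. These are descriptions over genes that share the same 2 libraries. Mir212 had the higher content over the whole hairpin, and the smaller ratio. In the mature 3p arms the content was 50% for miR-132-3p and 54.5% for miR-212-3p. For the 5p arms it was 45.5% for miR-132-5p and 47.8% for miR-212-5p. The part of composition in the Mir132 difference was not tested.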

How the data were processed

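The deposited tables give raw read counts for each miRNA gene, on mm10 with GENCODE M21 per the file headers of the accompanying text. The aligner, counting tool, trimming and filters were not given in the sources used here. Of the 3 count columns, the one on the gene's strand was used, identified as the larger stranded column. The 4 rows of unassigned reads stayed out of totals. CPM were computed over all 2202 genes, and log values as log2(CPM + 0.5). Libraries were compared by an exact binomial test, two-sided and conditional on library totals, and hairpin pairs by Fisher's exact test, with Benjamini-Hochberg adjustment over all genes or pairs with at least 10 counts and a threshold of 0.05. edgeR's quasi-likelihood test needs residual degrees of freedom, which 1 library on each side does not leave. edgeR 4.0.16 in R 4.3.3 gave TMM factors (0.997 and 1.003), the common dispersion and a negative binomial exact test; DESeq2 1.42.0 gave size factors. Python 3.11.15, scipy 1.17.1, pandas 2.3.3, numpy 2.4.6, matplotlib 3.10.9 and RNAfold 2.7.2 were also used. The exact binomial test and Fisher's exact test were checked on simulated counts with counting error only and no further spread between libraries. The negative binomial test was not checked in this way.

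The members and lists were chosen with earlier results of these data known. Named are the members, the 5 nearest genes of each, their neighbours in rank, the 3 hairpin pairs on either side by change of ratio, and genes of the activity list with at least 10 counts. Which of that list's 25 such genes are given with their CPM was chosen after the values were seen. Promoter motifs of the members were not analysed here. Alternatives were other denominators, scalings, filters, pseudocounts, gaps and the column that ignored strand.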

Additional observations from a re-analysis of the deposited data

How the results depend on the processing

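Scaling by TMM or by DESeq2 size factors left the level of each member within its replicate SD and changed neither member's call between the libraries. The mean level of Mir132 was 3424 per 1000000 of all reads and 23577 CPM without the 10 most abundant genes in the denominator. For Mir212 these were 151 and 991, and the column that ignored strand gave 511 CPM. The rank of Mir212 became 116 among genes that share no stretch, since fewer genes were ranked, and 130 in the column that ignored strand. Leaving out each replicate gave 5947 to 17266 CPM and rank 13 to 35 for Mir132, 471 to 491 CPM and rank 136 to 145 for Mir212, and 12.6 to 35.2 for their ratio. The log2 ratio of the libraries for Mir132 was 1.54 under the negative binomial test too, but did not pass (adjusted p = 1, edgeR), and that test called 2 genes where the exact binomial test called 264. That of Mir212 reversed to -0.30 with all reads as denominator. Pairs whose ratio differed numbered 27 of 37 among hairpins that share no stretch, where fewer pairs were tested. The mean ratio of Mir132 to Mir212 was 33.0 per base of annotated hairpin. The 5 alternatives for the change of that ratio between the libraries leave the members' own counts as they are. They therefore do not test that change. Tests between the libraries could not leave out a replicate, as 1 library remains. No paired analysis was possible because there is only 1 group. For Mir212 the counting intervals of single libraries are wider than the SD of 13.8 CPM between them, so depth limits that comparison; for Mir132 the libraries lie outside each other's counting intervals.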
